A study of Homo sapiens with 4 samples.

Results

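Genes of serine synthesis, one-carbon (folate) metabolism and the ATF4 stress response, 10 in all, were examined for chromatin accessibility: MTHFD2, MTHFD1L, SHMT2, PSAT1, PHGDH, ALDH18A1, ASNS, ATF4, ATF5 and DDIT3. Their peaks were taken by gene symbol from the first of the authors' deposited peak tables, and overlapping peaks were taken from the second. This gave 11 of 20556 peaks in the first table, for 8 of the 10 genes, and 9 of 13577 peaks in the second. SHMT2 and DDIT3 had no row under their own symbol in the tables used here. Of the 11 peaks, 9 were annotated as promoters, within 3 kb of a start site, and 2 lay in introns of MTHFD1L.

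The cells were Kasumi-1, a human acute myeloid leukaemia line with the RUNX1::RUNX1T1 fusion. One group was a SETD8 knockout made with CRISPR/Cas9 (sgSETD8, 2 libraries), and its control carried sgNT with the genotype WT (2 libraries). SETD8, now called KMT5A, places a single methyl group on lysine 20 of histone H4. Accessibility was measured by ATAC-seq, which counts sequencing adapters inserted by a transposase into open DNA. The labels give neither the time after knockout nor whether the cells were a clone or a pool, and nothing says that the libraries came from separate cultures. The first table names no library, and its direction, treated over control, was read from the table's name. The second compares the knockout and the control library numbered 2, so it has no replicate check. As the first names no library, no replicate check can be read from it either. Whether the libraries numbered 2 also entered the first table is not stated. The tables are therefore given side by side and not as independent measurements. Values below are the authors' log2 fold changes, knockout over control, unless stated otherwise.

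Cells make serine from a glycolytic intermediate through PHGDH, PSAT1 and a phosphatase. SHMT2 passes a one-carbon unit from serine to folate in mitochondria, and MTHFD2 and MTHFD1L carry that unit on to formate, which feeds purine synthesis. ATF4 is a bZIP transcription factor whose translation rises when the initiation factor eIF2 is phosphorylated, as under amino acid shortage or mitochondrial stress. It activates serine, folate, proline and asparagine genes. ATF5 and DDIT3, also called CHOP, are bZIP factors of the same response.

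ATF4 binds with C/EBP partners to a composite DNA element, so the promoters were searched for its core TGATGNAA on both strands. The windows ran from 250 bases before to 50 bases after each start site (RefSeq, GRCh38.p14, the same assembly as the files' hg38). They covered 9 of the 10 genes in 17 windows, and 2 genes held the core. The lines below show these 2 sites 5′ to 3′ on the gene's strand, with the core in capitals, because they are the matches to the ATF4 element among the members.
MTHFD1L, chr6:150866346-150866375, plus strand: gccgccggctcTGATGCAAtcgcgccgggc
ASNS, chr7:97872458-97872487, minus strand: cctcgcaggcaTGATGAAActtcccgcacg
Counted from a RefSeq start site of its gene, the MTHFD1L core began at position -129 and the ASNS core at position -68. Both lay inside a peak of each table. Over all promoters, 4.46% of 27305 genes held this core, and 3.62% of their 35116 windows did. Windows per gene differed, with 4 for MTHFD1L and 2 for ASNS, so shares of genes are not an exact match for the members. The cyclic AMP response element TGACGTCA was in 0 of the 9 genes (2.25% of all), and the E-box CACGTG in 3, MTHFD1L, ALDH18A1 and ATF4 (8.77% of all). A match of letters is not evidence of binding.

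The tables shared a shift that sets the scale for every member. All peaks of the first table had a median log2 fold change of -0.87, with quartiles of -1.17 and -0.53. The second table had a median of -1.23, with quartiles of -1.43 and -1.01. Promoter peaks had medians of -0.92 and -1.26. A member is therefore described by its value and by its place among these peaks. The authors' adjusted p was under 0.05 at 0 peaks of either table (0.0% of all peaks in each), members included. Before adjustment, 329 peaks of the first and 19 of the second table had a p under 0.05, among them 0 of the members' promoter peaks. Reads in peaks of the second table came to 2091370 for the knockout and 5345010 for the control. The part this difference has in the fold changes was not tested. The promoter of KMT5A itself stood at -0.82 and -1.45 in the authors' first and second deposited tables, which measures accessibility and not loss of the gene. Promoter peaks were listed in the first table for 6 of 8 Kasumi-1 markers and for 5 of 12 markers of other cell types. Of these, 6 and 0 had an overlapping promoter peak in the second. Second-table peaks took gene and promoter labels from the first-table peak they overlapped, so the remaining markers could not be counted there. The part of other cells in the members' values was not tested. MPO and CD33 were the 2 Kasumi-1 markers without a promoter peak in the first table.

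MTHFD2, the mitochondrial enzyme that oxidises methylene-folate, had the lowest promoter value of the members in the first table and the next to lowest in the second. For its peak on chromosome 2, 74198237 to 74199262, the authors' first deposited table gave a log2 fold change of -1.68 (p = 0.114, adjusted p = 0.731). The mean level and fold change there imply 240 normalised reads on the treated side and 770 on the control side. It stood at percentile 3.63 of promoter peaks, where a low percentile means a lower value in the knockout. Among promoters of similar level it stood at percentile 1.96. The second-table peak at 74198259 to 74199399 held 231 reads in the knockout library (95% exact Poisson interval 202 to 263) and 832 normalised reads in the control (778 to 888). The intervals, which cover counting error only, do not meet. Median levels over all peaks of that table also differed, at 125 reads in the knockout and 296 normalised reads in the control. The gap between the intervals alone therefore does not set MTHFD2 apart. Its fold change was -1.85 in the authors' second deposited table (p = 0.184, adjusted p = 0.578), at percentile 2.63 of promoters, with a counting interval of -2.06 to -1.64. The MTHFD2 promoter was thus at the low end of both tables.

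The chromosome around MTHFD2 was also low. Within 2.5 Mb on either side, the 48 other peaks of the first table had a median of -1.375, and 13 of them were lower than MTHFD2. In the second table the 36 other peaks had a median of -1.53, and 3 were lower. Relative to the other peaks of its 5 Mb bin, the promoter was lower by 0.34 in the first table (bin median -1.34) and by 0.25 in the second (bin median -1.60). The promoter was thus low against each table and, by a smaller margin, below the median of its neighbourhood. In the first table it still lay just inside the quartiles of the peaks within 2.5 Mb (-1.69 and -1.07). In the second it lay below their lower quartile of -1.71.

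MTHFD1L, which releases formate in the mitochondrion, had an ordinary promoter and an intron peak that differed between tables. The promoter peak, chromosome 6 from 150865448 to 150866988, stood at -1.07 in the authors' first deposited table (adjusted p = 0.731), at percentile 34.5 of promoters, from an implied 206 reads on the treated side and 433 on the control side. The overlapping peak held 208 knockout reads (181 to 238) and 428 normalised control reads (390 to 468). Its fold change was -1.04 in the authors' second deposited table (adjusted p = 0.578), at percentile 78.2. An intron peak at 151005909 to 151006566, 442 bp from a further RefSeq start site of the gene, stood at -1.68 in the authors' first deposited table (p = 0.0834, adjusted p = 0.731). That is as low as the MTHFD2 promoter, from an implied 39.9 reads on the treated side and 128 on the control side. The overlapping peak of the second table had 80 knockout reads (63.4 to 99.6) and 138 normalised control reads (117 to 162). There the fold change was -0.79 in the authors' second deposited table, 0.44 above the median, so the 2 tables place this site on opposite sides of their medians. The other intron peak, at 151040878 to 151041419, stood at -1.22 in the authors' first deposited table and overlapped no row of the second.

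PSAT1, the aminotransferase of serine synthesis, had low promoter values that matched those of its surroundings. The authors' first deposited table listed -1.45 for its peak on chromosome 9, 78296721 to 78297722 (p = 0.172, adjusted p = 0.731), from an implied 254 reads on the treated side and 695 on the control side. In the second table its peak held 201 knockout reads (174 to 231) and 596 normalised control reads (552 to 644). The fold change was -1.57 in the authors' second deposited table (p = 0.255, adjusted p = 0.578), with a counting interval of -1.81 to -1.34. These values stood at percentiles 9.43 and 13.8 of promoters. The other peaks of the 5 Mb bin had medians of -1.37 (23 peaks) and -1.685 (14 peaks). PSAT1 thus lay 0.08 below its region in the first table and 0.115 above it in the second, and the second-table counting interval includes the regional median.

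PHGDH, which catalyses the first step of serine synthesis, had the least lowered promoter of the members in both tables. It has a peak over the RefSeq start site and a stronger one 63333 bp away, at the start of another annotated transcript. The stronger peak, chromosome 1 from 119647941 to 119648601, was listed at -0.48 in the authors' first deposited table (adjusted p = 0.788), from an implied 171 reads on the treated side and 239 on the control side. The weak peak over the RefSeq start, at 119711801 to 119712160, stood at -0.40 in the authors' first deposited table (adjusted p = 0.773), from an implied 50.1 and 66.1 reads on the treated and control sides. The 2 peaks are close in value, at percentiles 84.8 and 88.3 of promoters. In the second table the upstream site had 102 knockout reads (83.2 to 124) and 160 normalised control reads (137 to 185). Its fold change was -0.65 in the authors' second deposited table (adjusted p = 0.649), at percentile 97.6 of promoters, with a counting interval of -1.01 to -0.29 that leaves out the table's median. The peak over the RefSeq start overlapped no row of the second table. PHGDH lay above the median of its 5 Mb bin by 0.305 (first table) and 0.59 (second table), whereas MTHFD2 lay below its own. Within 2.5 Mb on either side, the 19 other first-table peaks had a median of -0.46, and 9 were lower than PHGDH at -0.48. For the second table, 15 other peaks had a median of -1.3, and 13 were lower than PHGDH. With this window, the opposite direction to MTHFD2 was thus seen only for the second table.

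ALDH18A1, which makes the precursor of proline from glutamate, was at the centre of the first table and at the low end of the second. In the authors' first deposited table its promoter peak, chromosome 10 from 95656058 to 95657019, stood at -0.92 (adjusted p = 0.731), at percentile 49.4 of promoters, from an implied 110 reads on the treated side and 209 on the control side. The second-table peak at 95656254 to 95657034 held 52 knockout reads (38.8 to 68.2), the fewest of the member promoters, and 194 normalised control reads (168 to 222). Its fold change was -1.90 in the authors' second deposited table (p = 0.143, adjusted p = 0.578), the lowest of the members, at percentile 1.75. The counting interval of -2.36 to -1.45 does not reach the table's median of -1.23 or the regional median of -1.27. Around ALDH18A1 the regional medians, -0.81 and -1.27, were close to those of the whole tables. Its low value thus rests on the single knockout and control library of the second table.

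**Figure D1:**
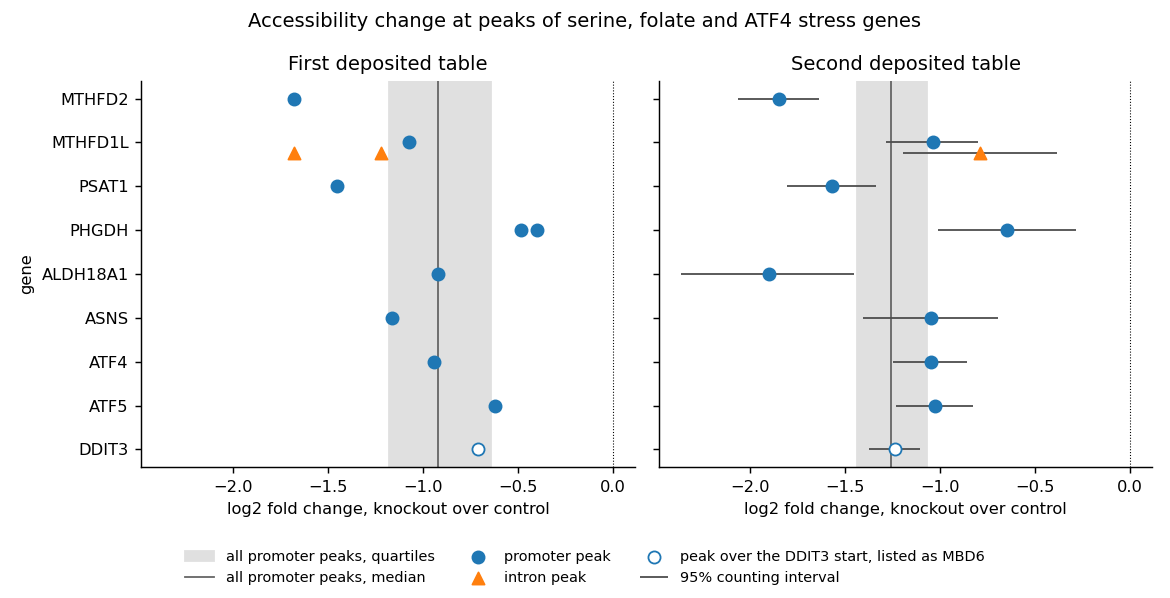
Log2 fold change of the member peaks, knockout over control, in the first (left) and second (right) deposited table, with the quartiles and median of all promoter peaks. MTHFD2 and PSAT1 lie left of the median in both panels and PHGDH right of it, while ALDH18A1 is at -0.92 in the first and -1.90 in the second; horizontal lines are 95% counting intervals.

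ASNS, which makes asparagine and is a textbook ATF4 target, carries the composite element shown above within its promoter peak. That peak, chromosome 7 from 97872077 to 97872620, was listed at -1.16 in the authors' first deposited table (p = 0.287, adjusted p = 0.731), at percentile 26.6 of promoters. The implied levels were 141 reads on the treated side and 314 on the control side. The second-table peak held 96 knockout reads (77.8 to 117) and 198 normalised control reads (173 to 227). Its fold change was -1.05 in the authors' second deposited table (adjusted p = 0.578), at percentile 77.2. ASNS was 0.33 below its region in the first table and 0.05 above it in the second. The value is below the median in one table and above it in the other, and the second-table counting interval of -1.41 to -0.69 includes the median.

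ATF4, the factor at the head of the response, was near the middle of the first table and less lowered than most promoters in the second. For the promoter peak on chromosome 22, 39519479 to 39520792, the authors' first deposited table gave -0.94 (adjusted p = 0.731), at percentile 47.3 of promoters. The implied levels were 180.4 reads on the treated side and 346 on the control side. In the second table it held 315 knockout reads (281 to 352) and 653 normalised control reads (606 to 702). The fold change was -1.05 in the authors' second deposited table (adjusted p = 0.578), at percentile 77.2, with a counting interval of -1.25 to -0.86 that includes the table's median of -1.23. Relative to its 5 Mb region, ATF4 stood at -0.28 in the first table and at 0.13 in the second. ATF4 is itself controlled in large part at translation, which ATAC-seq does not measure.

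ATF5, a bZIP factor of the mitochondrial stress response, was less lowered than most promoters in both tables. The promoter peak, chromosome 19 from 49928932 to 49930128, was listed at -0.62 in the authors' first deposited table (adjusted p = 0.743), at percentile 76.8 of promoters, from an implied 326 reads on the treated side and 500.4 on the control side. The overlapping peak held 290 knockout reads (258 to 325) and 592 normalised control reads (547 to 640). Its fold change was -1.03 in the authors' second deposited table (adjusted p = 0.578), at percentile 79.3. The counting interval of -1.235 to -0.83 just includes that table's median of -1.23. The first-table value equals the median of its 5 Mb region, which was -0.62, and the second-table value lay 0.19 above its region.

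DDIT3, which encodes CHOP, starts inside a peak that the authors' annotation gives to MBD6, a neighbouring gene. The peak covers the RefSeq start of DDIT3, runs on chromosome 12 from 57520284 to 57521069 and stood at -0.71 in the authors' first deposited table (adjusted p = 0.732). The implied levels were 527 reads on the treated side and 862 on the control side. The overlapping second-table peak held 622 knockout reads (574 to 673) and 1468 normalised control reads (1398 to 1543), and its fold change was -1.24 in the authors' second deposited table. These values lay 0.16 above and 0.01 below the table medians, so the site followed the shared shift closely in the second table. Accessibility of a shared start region cannot be divided between the 2 genes. Of SHMT2, one peak 1099 bp from a start site of NDUFA4L2 lists the gene as a flanking one. That peak, at 57238979 to 57239593 of chromosome 12, stood at -0.86 in the authors' first deposited table, 0.01 above the median, and it overlapped no row of the second.

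**Figure D2:**
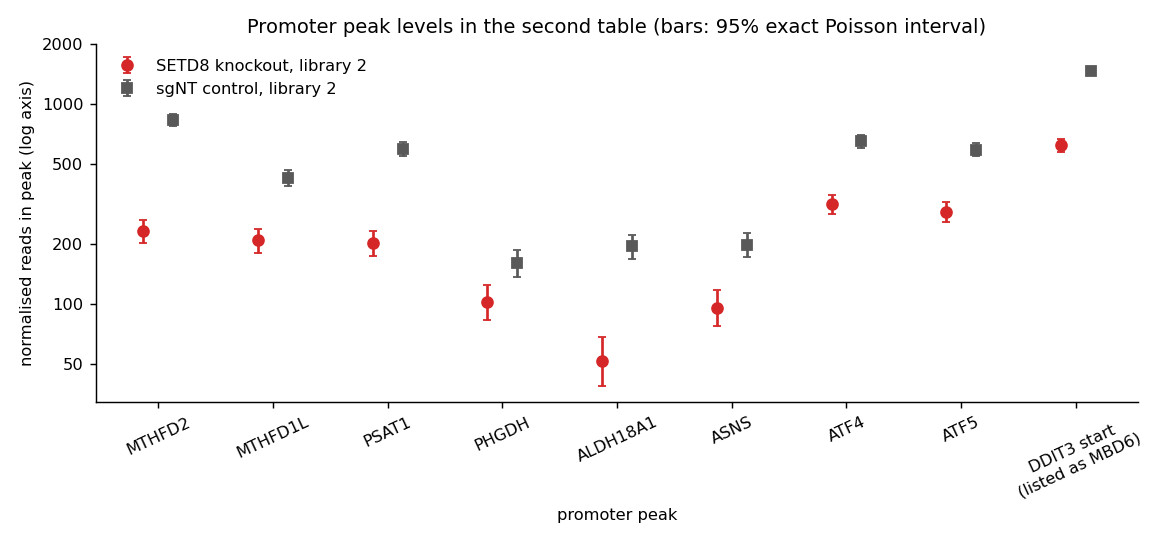
Normalised reads (log axis) in the promoter peaks of the members and over the DDIT3 start, in the knockout library (left of each pair) and the sgNT library (right) numbered 2, with 95% exact Poisson intervals. The knockout level is lower in every pair, with 231 against 832 reads at MTHFD2 and 52 against 194 at ALDH18A1. Of all peaks of the second table, 98.6% had a negative fold change.

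**Figure D3:**
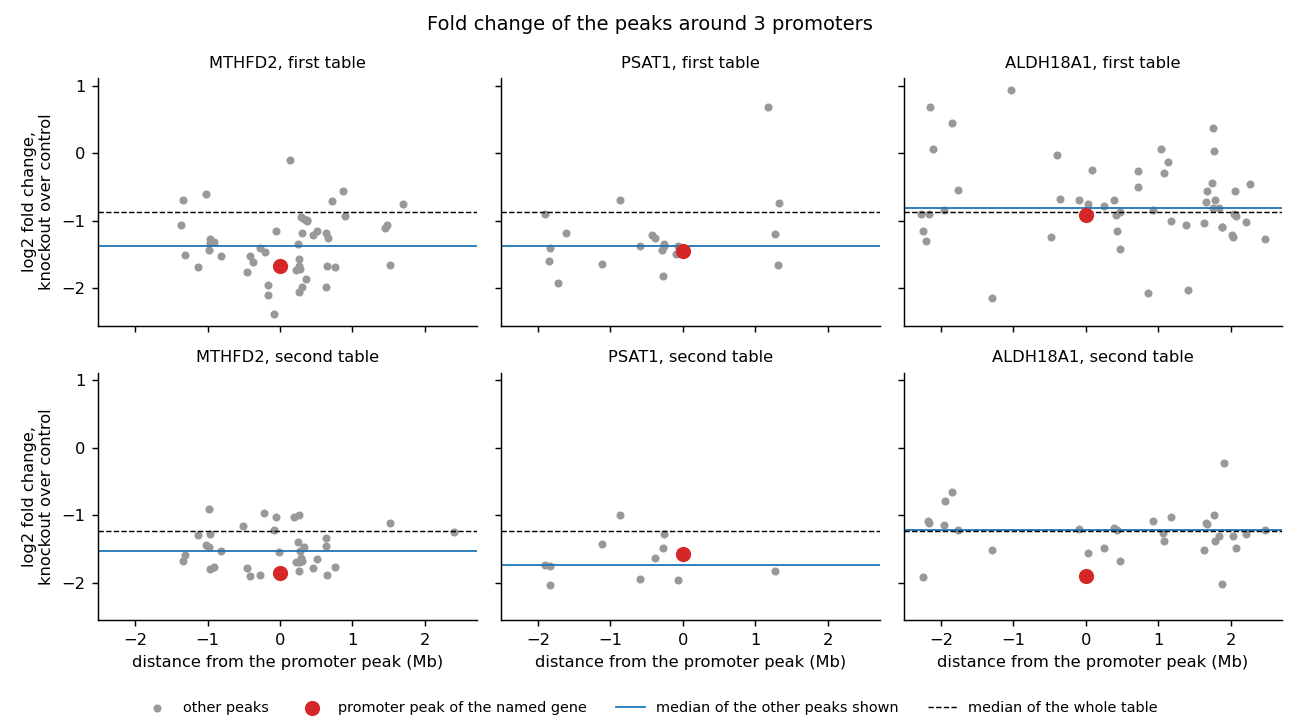
Fold change of all peaks within 2.5 Mb of the promoter peaks of MTHFD2, PSAT1 and ALDH18A1, against distance in Mb, in the first (top) and second (bottom) table. The neighbours of MTHFD2 and PSAT1 have medians (solid line) below that of the whole table (dashed line), whereas those of ALDH18A1 do not, with medians of -0.815 and -1.21.

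Each gene was then represented by its strongest promoter peak. All 8 genes with a promoter peak had a negative value in both tables, as did 92.3% and 98.6% of all peaks in the first and second. In the first table the values ran from -1.68 to -0.48 with a median of -1.005, against -0.92 for all promoter peaks. They ran from -1.90 to -0.65 with a median of -1.05 in the second, against -1.26. The members' median lay inside the quartiles of all promoter peaks in the first table (-1.18 and -0.64), and just above the upper one in the second (-1.44 and -1.07). Of the 9 member promoter peaks of the first table, 4 were lower by at least 1, where 42.0% of all promoter peaks were. Of the 8 in the second, 7 were, where 82.8% of all promoter peaks were. Both shares of peaks lowered by at least 1 are near the background. Relative to the median of all peaks, 6 genes were lower and 2 higher in the first table. In the second, 3 were lower and 5 higher. Of all promoter peaks, 54.2% and 52.9% lay below these medians. The first-table count of lower genes was 5 against the median of promoter peaks and 4 against medians of peaks of similar level. ALDH18A1 and ATF4 counted as lower there at only -0.05 and -0.07 relative to the median of all peaks. MTHFD2, PSAT1 and ALDH18A1 were below the median in both tables, and PHGDH and ATF5 above it in both. MTHFD1L, ASNS and ATF4 were below it in the first and above it in the second.

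Fold change varied with peak level, so each promoter was also set against peaks of similar level. Peaks were divided by level into 20 bins. For the first table the bin medians were -0.10 in the weakest bin and -0.92 in the strongest. The lowest, -1.01, was in between, at a log2 level of 7.78. For the second table they were -0.72 in the weakest bin and -1.29 in the strongest. Relative to its own bin, MTHFD2 stood at -0.73 and -0.58 in the first and second tables, and PSAT1 at -0.50 and -0.29. PHGDH stood at 0.49 and 0.57, and ATF5 at 0.37 and 0.25. ALDH18A1 stood at 0.005 and -0.73. MTHFD2 and PSAT1 were therefore low, and PHGDH and ATF5 high, also among peaks of their own level in both tables.

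**Figure D4:**
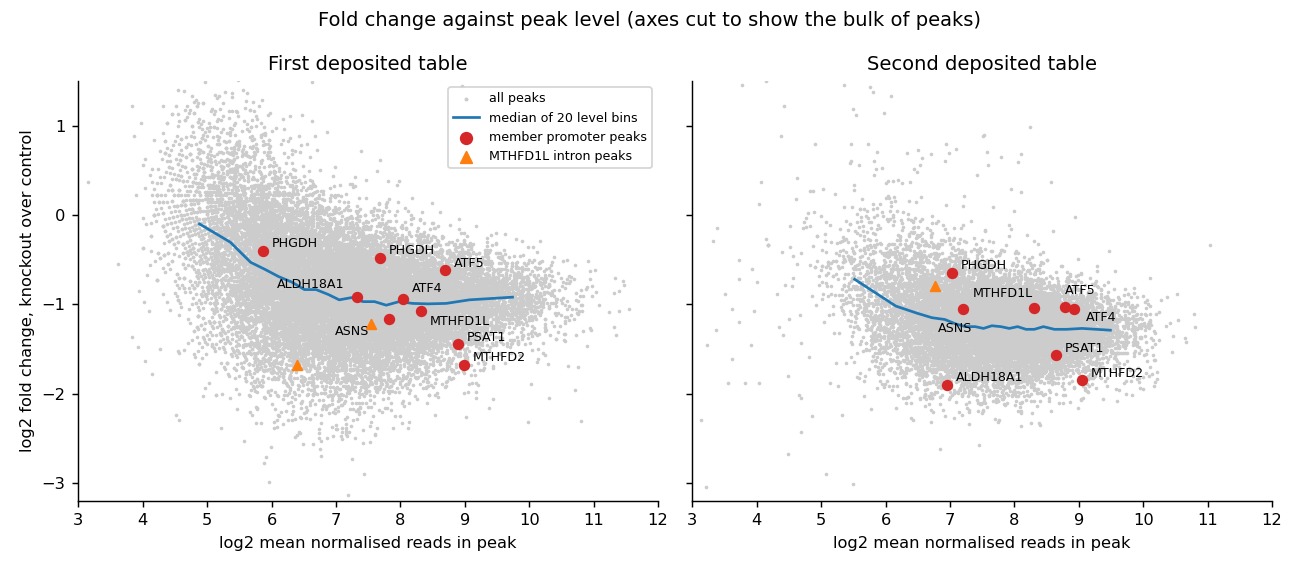
Log2 fold change against log2 mean normalised reads for all peaks (grey), with the median of 20 level bins (line), the member promoter peaks (circles) and the MTHFD1L intron peaks (triangles). MTHFD2 and PSAT1 lie below the line in both tables and PHGDH above it.

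Other genes of the same pathways were counted in 7 lists, using the strongest promoter peak of each gene. Second-table counts hold only promoters that also had an overlapping first-table promoter peak, because gene and promoter labels were carried over from it. None of these promoters had an adjusted p under 0.05 in either of the authors' deposited tables. Of the serine and glycine genes, 5 of 9 had a promoter peak in each table, with medians of -1.03 and -1.46. The lowest was CTH, of cysteine synthesis, at -1.35 in the authors' first deposited table, and DLD, a shared subunit of the glycine cleavage system, at -1.61 in the authors' second deposited table. The highest was SHMT1, the cytosolic serine hydroxymethyltransferase, at -0.32 in the authors' first deposited table, and CTH at -1.19 in the authors' second deposited table. The folate cycle had 8 of 15 genes in each table, with medians of -0.885 and -1.315. FPGS, which adds glutamates to folate, was lowest at -1.32 in the authors' first deposited table and MTR, methionine synthase, at -1.85 in the authors' second deposited table. MTHFS was the highest of them in both, at -0.43 and -0.98 in the authors' deposited tables.

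Proline and glutamate-linked enzymes had 7 of 10 genes in each table, with medians of -1.06 and -1.14. OAT, ornithine aminotransferase, was the lowest of these in both, at -1.63 and -1.40 in the authors' deposited tables, and PYCR3, a proline synthesis reductase, the highest in both, at -0.49 and -0.88. The kinases and factors upstream of ATF4 had 14 of 15 genes in each, with medians of -0.85 and -1.335. They ranged from EIF2AK2 (PKR) at -1.19 to EIF2S1, the alpha subunit of eIF2, at -0.44 in the authors' first deposited table. In the authors' second deposited table they ranged from EIF2B5, an eIF2B subunit, at -1.71 to GCN1, an activator of the kinase GCN2, at -0.70.

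ATF4 target genes had 18 of 22 members with a promoter peak in the first table and 15 with one in the second, with medians of -0.78 and -1.26. VEGFA at -1.50 was the lowest and CEBPB at -0.27 the highest in the authors' first deposited table. SLC1A4, a neutral amino acid transporter, at -2.00 was the lowest and GDF15 at -0.97 the highest in the authors' second deposited table. The other bZIP factors, 10 and 8 of 12, had medians of -0.86 and -1.195. They ranged from BATF3 at -1.17 to ATF6 at 0.12 in the authors' first deposited table, and from JUN at -1.42 to BATF3 at -0.72 in the authors' second deposited table. The ATF6 peak was weak, at a log2 mean level of 5.30, and no second-table peak was assigned to the gene's promoter by overlap. First-table peaks of similar level had a median of -0.305 and an upper quartile of 0.14. Cytosolic aminoacyl-tRNA synthetases, which charge tRNAs with amino acids, had 15 of 20 genes in each table and medians of -0.85 and -1.35. They ranged from KARS1 at -1.54 to GARS1 at -0.37 in the authors' first deposited table, and from QARS1 at -1.85 to CARS1 at -1.03 in the authors' second deposited table. The medians of all 7 lists lay within the quartiles of all promoter peaks in the first table. The same held for the second table, except for the serine and glycine genes, whose median was below the lower quartile.

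**Figure D5:**
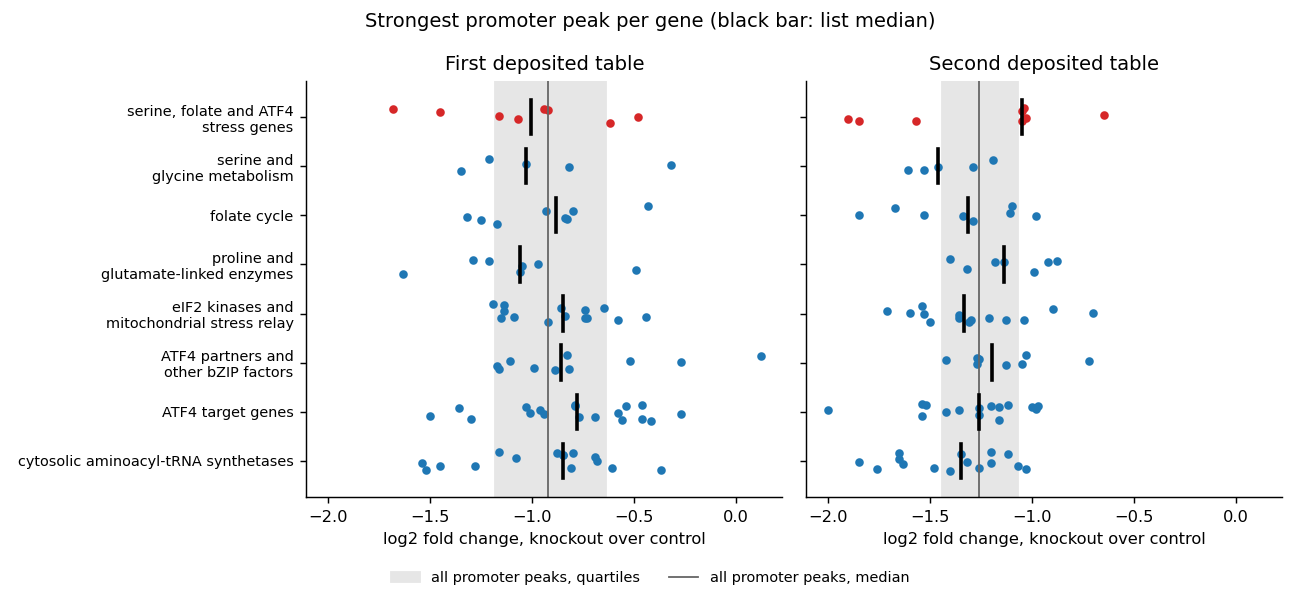
Log2 fold change of the strongest promoter peak per gene for the 10 named genes (red, 8 with a peak) and 7 further lists (blue), with list medians (black bars) and the quartiles of all promoter peaks (grey), in the first (left) and second (right) table. The list medians stand at -1.06 to -0.78 in the first table and at -1.46 to -1.05 in the second.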

How the data were processed

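ATAC-seq libraries of Kasumi-1 cells, 2 SETD8 knockout and 2 sgNT, were compared by the authors, and groups were taken from the sample titles. The build, hg38, and the tools Bowtie2, MACS2 2.1.2, ChIPseeker, cutadapt, SAMtools and deepTools come from the submitters' processing notes, without roles. Sources used here do not give read shifting, duplicate removal or the scaling between libraries. Per peak, the authors deposited log2 mean levels, log2 fold changes, p-values and adjusted p-values, with log2 levels of single libraries in the second table per the file headers. Level, fold and p columns of the first table carry no names and were identified by order and range, and 2 of them, of unnamed libraries, were not used. Distances to start sites, in bp (another kind of value), are those of the authors' deposited annotation.

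Levels on each side of the first table were computed from its mean and fold change, a relation that holds within 0.01 in the second table. Second-table levels were whole reads in the knockout and reads times 0.918 in the control (100% of 361 and 170 weak values within 0.0055 log2). The column sgS8.2A was read as the knockout titled sgSETD8#2. Peaks of the tables were joined at an overlap of 1 bp. Second-table peaks took gene and promoter labels from the first-table peak they overlapped most, and 11169 of 13577 had one. A second-table promoter peak without a first-table partner was therefore not counted as a promoter. Counting intervals are 95% exact Poisson, or exact binomial for a fold change. They cover counting error only. Regional medians used the other peaks of a 5 Mb bin (at least 10), and level medians 20 bins. Gene identifiers of 20542 peaks matched GRCh38.p14. The members, the pathway lists and the rule that names the lowest and highest gene of each were chosen with earlier results of these data known. Read counts of all 4 libraries were not used, so no count model was fitted, and the regional and level medians were tested on simulated data. Python 3.11.15, numpy 2.4.6, pandas 2.3.3, scipy 1.17.1 and matplotlib 3.10.9 were used.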

Additional observations from a re-analysis of the deposited data

How the results depend on the processing

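The scale decides how the members read as a group. In the first table their median promoter fold change of -1.005 was -0.135 relative to all peaks, -0.085 relative to promoter peaks, -0.095 relative to 5 Mb regions and -0.035 relative to level bins. In the second table the median of -1.05 was 0.18, 0.21, 0.12 and 0.215 on the same scales. The count of member promoter peaks lower by at least 1 was 4 in the first table, 7 with a 1.5-fold limit and 0 relative to the median of all peaks. In the second it was 7, and 0 relative to that median. The other 16 values, covering the nearest start site, the level filter, other medians for counts of genes, the 1.5-fold limit in the second table and the overlap rule, stayed within the counting error of a median member or within 1.5 times the count. Of the 16 single promoter values, 9 were below 0 relative to all peaks (-0.81 to 0.58), 8 relative to their region (-0.63 to 0.59) and 7 relative to their level bin (-0.73 to 0.57). No paired analysis was possible because the labels of the groups share only the number 2, and leaving out a replicate was not run because each table gives 1 comparison and the first names no library. Depth limits ALDH18A1 and the MTHFD1L intron peak most, with 52 and 80 knockout reads in the second table.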

Other observations

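Several genes at the ends of the pathway lists stood at different places in the tables. Each was named for being lowest or highest of its list in a table. A less extreme place in the other therefore cannot be read as a property of the gene. SHMT1, the highest serine and glycine gene of the first table, stood 0.55 above the median there and 0.30 below it in the second (-0.30). CTH was 0.48 below the median in the first (-0.48) and 0.04 above it in the second. MTR stood 0.03 above the median in the first and at -0.62 relative to it in the second. BATF3 stood at -0.30 and 0.51 relative to the medians of the 2 tables. SLC1A4 was low in both, at -0.49 and -0.77 relative to the medians, with regional medians of -1.185 and -1.57. MTR and SLC1A4 were set beside each other here after their values were seen.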
